A study of Mus musculus with 9 samples.

Results

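Cells of an epithelium are held together by 4 kinds of junction, and 30 genes that encode their parts were followed in mouse hair follicle stem cells at 3 ages. The genes were taken by symbol, and all 30 were found among the 37980 rows of the deposited expression table, 1 row each. They comprise 13 desmosome genes, 4 adherens junction genes, 9 tight junction genes and 4 gap junction genes. The cells came from male C57BL/6J mice of 3, 19 and 24 months and carried no transgene or treatment that the labels name. They were sorted from back and belly skin by high CD49f (integrin alpha 6) and surface CD34, a pair that marks the follicle bulge, and their RNA was sequenced with 3 libraries per age. The labels do not say whether the libraries of an age came from different mice, so p-values measure the spread between libraries only, which may be technical.

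Desmosomes join the keratin filaments of neighbouring cells: desmogleins and desmocollins cross the membranes, and plakoglobin, plakophilins and desmoplakin link them to keratin. Adherens junctions do the same for actin through classical cadherins and catenins, tight junctions seal the space between cells with claudins and occludin, and gap junctions are channels built of connexins. In skin the basal layer and the follicle rely on desmoglein 3 and desmocollin 3, whereas desmoglein 1 and desmocollin 1 belong to the upper layers. Mice that lack desmoglein 3 shed their resting hairs, because the cells around the club hair separate.

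Levels are FPKM, fragments per kilobase of transcript scaled for transcript length and for the size of the library. Changes are differences of log2(FPKM + 1), which understate the change of low genes, given with limma's standard error (SE). A gene was called at a Benjamini-Hochberg adjusted p under 0.05, adjusted over all 11509 protein-coding genes tested. A gene was tested if at least 3 libraries reached 1 FPKM. Of the 30 genes 26 were, and Dsc1, Pkp2, Cldn7 and Tjp3 were not, with 0 libraries at 1 FPKM or more. The depth of the libraries is unknown. Summed over protein-coding rows, FPKM lay between 553400 and 738600 per library, and the median of the tested genes lay between 10.0 and 11.3 FPKM. The running numbers in the labels form a series of their own at 3 months and another, unbroken one over 19 and 24 months, so any difference in handling between 3 months and the older ages cannot be told apart from age.

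Sorting markers were present at each age: Cd34 was between 403 and 632 FPKM, Itga6, which encodes CD49f, between 72.7 and 117 FPKM, and Krt14 between 3235 and 6619 FPKM. Krt15, a bulge keratin, is listed at 0 in all 9 libraries, which can be a failed estimate. Of the 8 tested bulge markers, Sox9 and Nfatc1 rose at 19 against 3 months and Lgr5 fell at 24 against 3 months. Markers of other skin cells were looked for as well. Of 9 markers of differentiated epidermal keratinocytes, 8 were tested and 0 passed at any comparison. Their summed FPKM ran from 5280.2 to 5623 at 3 months, from 6840.4 to 8667 at 19 months and from 5979 to 8432 at 24 months. Of 7 endothelial markers, Ramp2 and Egfl7 were tested and both fell at 24 against 3 months, while Pecam1, Cdh5 and Kdr stayed under 0.447 FPKM and Emcn and Cldn5 are listed at 0 throughout. Of 8 sebocyte markers 7 were tested, and 6 fell at 19 against 3 months and 6 at 24 against 3 months, while Mgst1 rose at 24 months. The summed FPKM of the sebocyte list ran from 248 to 322 at 3 months, from 223 to 283 at 19 months and from 342 to 458 at 24 months. Mgst1 made up most of that sum, with 185 to 237, 202 to 262 and 321 to 430 FPKM at the same ages. Scd1, the next most abundant, ran from 38.1 to 48.8, from 18.7 to 19.4 and from 17.4 to 20.4 FPKM. The sum of the endothelial list ran from 11.8 to 14.2, from 9.67 to 10.7 and from 5.62 to 7.24 FPKM. Of 4 tested melanocyte markers Tyrp1 fell at 19 and at 24 against 3 months. Among 6 markers of the isthmus and infundibulum, Krt79 fell at 19 against 3 months (limma adjusted p = 0.013) and Lgr6 at 24 against 3 months (0.0113). Plet1 (1600029D21Rik in the table), Lrig1 and Defb6 were higher on average at 24 than at 3 months, Cst6 and Krt79 lower, and none of these passed at that comparison. The list summed to 407 to 421 FPKM at 3 months, 287 to 524 at 19 months and 385 to 541 at 24 months. Among 8 tested immune markers, Fcer1g fell at 19 against 3 months (limma adjusted p = 0.0373) and rose at 24 against 19 months (0.00403). The part of these cell types in the junction results was not tested. In sorted bulk RNA, fewer cells of a type and less RNA per cell cannot be told apart.

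The 30 genes spanned a wide range. Averaged over the 9 libraries, Pkp3 was the most abundant at 322 FPKM, followed by F11r at 247, Jup at 217, Dsp at 214, Dsc3 at 205 and Cdh1 at 166 FPKM. Between-library ranges of F11r, Jup, Dsp, Dsc3 and Cdh1 overlap, so their order is not fixed. The 4 genes that were not tested averaged between 0.0922 and 0.503 FPKM. Dsc2 passed the filter with 4 libraries and Gjb2 with 8, and the other 24 tested genes had all 9 libraries at 1 FPKM or more.

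For the regulatory regions, RefSeq windows of GRCm38.p6 were available for 17 of the 30 genes, reaching from 250 bases before to 50 bases after a transcription start. A set of 3 short motifs was searched on both strands. The E-box CAGGTG, read by Snail-type repressors of cadherin genes, was found in the windows of 9 of the 17 genes (Cldn4, Cldn7, Dsp, F11r, Gjb2, Gjb6, Ocln, Pkp4 and Tjp3), or 11 of the 24 windows of those 17 genes (45.8%), beside 20.2% of all 32851 windows of this length. AACCNGTT, read by Grainyhead-like factors, was in those of Cgn and Gjb6, or 8.33% of windows beside 2.09%. TGANTCA, read by AP-1, was in those of Cldn4, F11r and Gja1, or 12.5% beside 7.81%. These shares describe letters in a window. Windows of Cldn4, a tight junction gene that is described below in every library, and of the neighbouring connexin genes Gjb2 and Gjb6 are shown, with motif matches in capitals. The Cldn4 window, at chr5:134946885-134947184 on the minus strand, holds 2 E-boxes and 2 AP-1 motifs. The Gjb2 window (chr14:57104653-57104952, minus strand) holds 1 E-box, and the Gjb6 window (chr14:57133562-57133861, minus strand) holds 1 Grainyhead motif near its upstream end and 1 E-box near the start.
Cldn4: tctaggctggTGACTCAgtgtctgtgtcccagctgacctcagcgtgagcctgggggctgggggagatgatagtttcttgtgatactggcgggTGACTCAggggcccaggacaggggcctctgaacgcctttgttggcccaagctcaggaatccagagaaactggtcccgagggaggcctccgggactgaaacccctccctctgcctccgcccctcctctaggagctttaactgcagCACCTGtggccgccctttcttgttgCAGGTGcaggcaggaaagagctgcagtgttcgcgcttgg
Gjb2: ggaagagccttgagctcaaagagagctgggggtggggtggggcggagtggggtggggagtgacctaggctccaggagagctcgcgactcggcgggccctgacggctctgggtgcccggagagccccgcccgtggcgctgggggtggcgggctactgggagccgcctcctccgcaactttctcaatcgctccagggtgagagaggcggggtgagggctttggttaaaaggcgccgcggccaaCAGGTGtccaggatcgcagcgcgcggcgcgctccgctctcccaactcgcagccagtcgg
Gjb6: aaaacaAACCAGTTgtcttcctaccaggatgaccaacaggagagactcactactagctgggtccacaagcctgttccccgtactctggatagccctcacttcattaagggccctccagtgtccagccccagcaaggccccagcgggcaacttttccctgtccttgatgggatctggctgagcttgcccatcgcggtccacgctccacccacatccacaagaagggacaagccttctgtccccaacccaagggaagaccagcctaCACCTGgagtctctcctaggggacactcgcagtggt

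Of the 30 genes, those called were 2 desmosomal cadherins, and none of the 5 tested plaque genes among the 30 passed. Dsg3 and Dsc3, the desmoglein and desmocollin of the basal layer, fell at 24 against 3 months. No other tested gene of the 26 passed at that comparison, and 0 passed at 19 against 3 or at 24 against 19 months. The 2 called of 26 stand beside a background of 3.84% of all genes called at 24 against 3 months, or 2.34% called lower and 1.5% higher. At 19 against 3 months 1.56% of all genes were called, 0.964% lower and 0.6% higher, and at 24 against 19 months 0.93%, 0.217% lower and 0.712% higher.

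Dsg3, desmoglein 3, had 62.6, 77.5 and 58.6 FPKM in the 3-month libraries, 44.95, 42.9 and 35.6 FPKM in the 19-month libraries and 26.1, 44.95 and 29.7 FPKM in the 24-month libraries. Each older library lay below each 3-month library, and the 19- and 24-month libraries overlapped. The log2 change was -0.99 ± 0.18 at 24 against 3 months (limma adjusted p = 0.0104), -0.67 ± 0.18 at 19 against 3 months (adjusted p = 0.0844) and -0.32 ± 0.18 at 24 against 19 months (adjusted p = 0.516). Without 3 months replicate 2 or 24 months replicate 4 the 24-month call of Dsg3 was lost (adjusted p = 0.0569 and 0.0501). The 19-month change passed without 24 months replicate 3 (adjusted p = 0.0362) and in a fit of those 2 ages alone (0.0425).

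Dsc3, desmocollin 3, is its partner across the cell gap. It stood at 225, 313 and 260.3 FPKM at 3 months, at 205, 198 and 160.0 FPKM at 19 months and at 127, 187 and 167 FPKM at 24 months. Here too the older libraries were all below the 3-month libraries. The log2 change was -0.73 ± 0.17 at 24 against 3 months (limma adjusted p = 0.0261), -0.49 ± 0.17 at 19 against 3 months (adjusted p = 0.159) and -0.24 ± 0.17 at 24 against 19 months (adjusted p = 0.613). The Dsc3 call was lost without 3 months replicate 2 (0.113) or 3 (0.0628) and without 24 months replicate 2 (0.0856) or 4 (0.0749). Neither call passed in a fit of all 14275 rows of every gene type, which also put back the rows listed at 0, and where the adjusted p was 0.0856 for Dsg3 and 0.119 for Dsc3 and 29 rows were called in all.

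**Figure D1:**
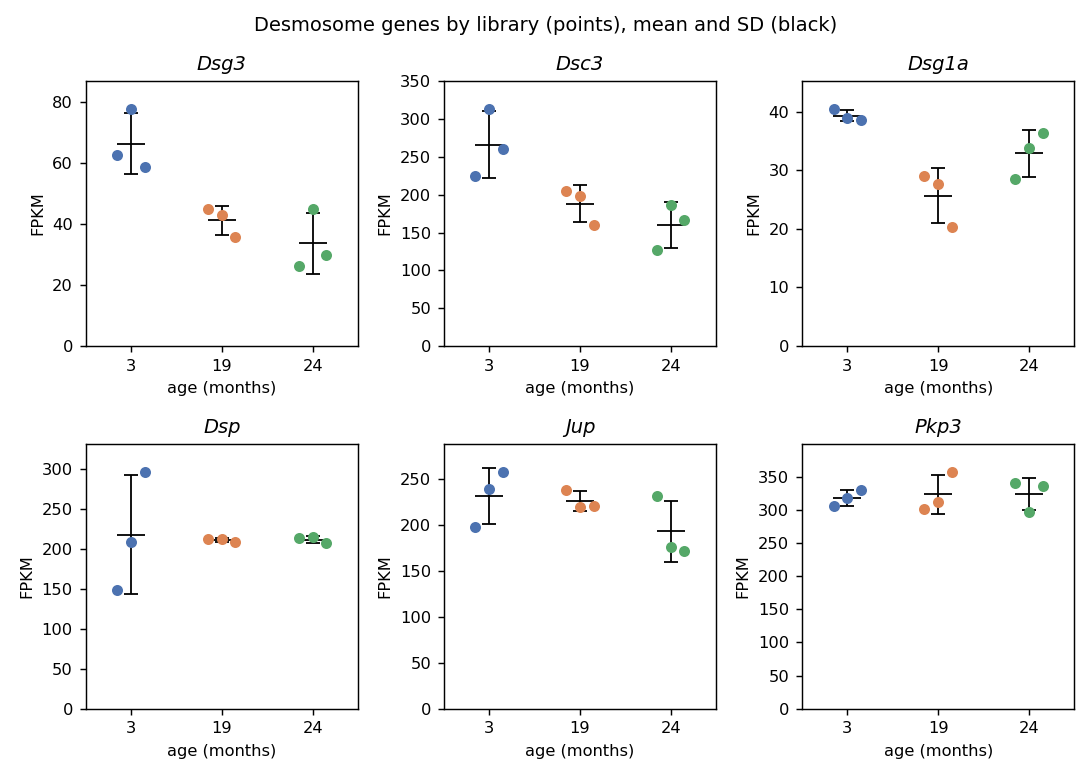
FPKM of 3 desmosomal cadherin genes (top) and 3 plaque genes (bottom) against age in months, with 1 point per library and the mean and SD of 3 libraries in black. Dsg3 and Dsc3 are lower in each older library than in each 3-month library, whereas the plaque genes Dsp, Jup and Pkp3 overlap between ages.

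Desmoglein 1 is encoded by near-identical genes in the mouse, and the counting can split reads between them, so their values are uncertain. Dsg1a had 40.4, 38.9 and 38.5 FPKM at 3 months, 28.9, 27.7 and 20.3 FPKM at 19 months and 28.5, 33.8 and 36.3 FPKM at 24 months. All older libraries were again below those of 3 months, with the 19-month mean the lowest of the 3 ages. The log2 change was -0.61 ± 0.15 at 19 against 3 months (limma adjusted p = 0.0574) and -0.26 ± 0.15 at 24 against 3 months (adjusted p = 0.345), and neither was called. The 19-month change of Dsg1a passed without 19 months replicate 1 (0.0473), without 24 months replicate 2 (0.0486) and with a robust prior (0.0493). Dsg1b lay between 1.495 and 2.80 FPKM in the 9 libraries.

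The remaining desmosomal cadherins were low. Dsg2, the desmoglein of simple epithelia, lay between 6.23 and 8.29 FPKM and averaged 7.05, 7.22 and 7.598 FPKM at 3, 19 and 24 months, with a log2 change of 0.10 ± 0.16 at 24 against 3 months (adjusted p = 0.773). Dsc2 averaged 0.880, 0.981 and 0.472 FPKM, and Dsc1, the desmocollin of the upper epidermis, did not exceed 0.763 FPKM. Summed over the 7 desmosomal cadherins, FPKM came to 337, 441 and 369.6 at 3 months, 289.96, 279.9 and 226 at 19 months and 191, 276 and 244 at 24 months. Dsc3 made up 66.6 to 71.0% of that sum at 3 months, 70.7 to 70.9% at 19 months and 66.4 to 68.2% at 24 months. Dsg3 made up 15.8 to 18.6%, 15.3 to 15.7% and 12.2 to 16.3% at the same ages.

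Of the 6 plaque genes 5 were tested and 0 passed limma's test at any comparison. Dsp, desmoplakin, which binds keratin, had 148, 208 and 297 FPKM at 3 months, with a wide spread, and between 207 and 215 FPKM in the 6 older libraries. Its log2 change at 24 against 3 months was 0.02 ± 0.19 (adjusted p = 0.968). Jup, plakoglobin, averaged 232 ± 30.5, 226 ± 10.6 and 193 ± 33.3 FPKM at 3, 19 and 24 months (SD over 3 libraries), with a log2 change of -0.27 ± 0.15 at 24 against 3 months (limma adjusted p = 0.309). Among the plakophilins, which gather desmosomes into plaques, Pkp3 averaged 318, 323 and 324 FPKM and Pkp1 52.0, 48.7 and 51.1 FPKM. Their log2 changes at 24 against 3 months were 0.03 ± 0.13 and -0.01 ± 0.16. Pkp4 averaged 11.4, 9.38 and 12.3 FPKM, and Pkp2, a plakophilin of heart and simple epithelia, was at most 0.169 FPKM and is listed at 0 in 1 library. At an unadjusted p under 0.05, 0 of the 5 tested plaque genes passed at either comparison with 3 months, and 1 did at 24 against 19 months. Of all tested genes 15.7% did so at 19 against 3 months, 21.6% at 24 against 3 and 12.8% at 24 against 19. The difference in change between cadherins and plaque genes was not tested as such.

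**Figure D2:**
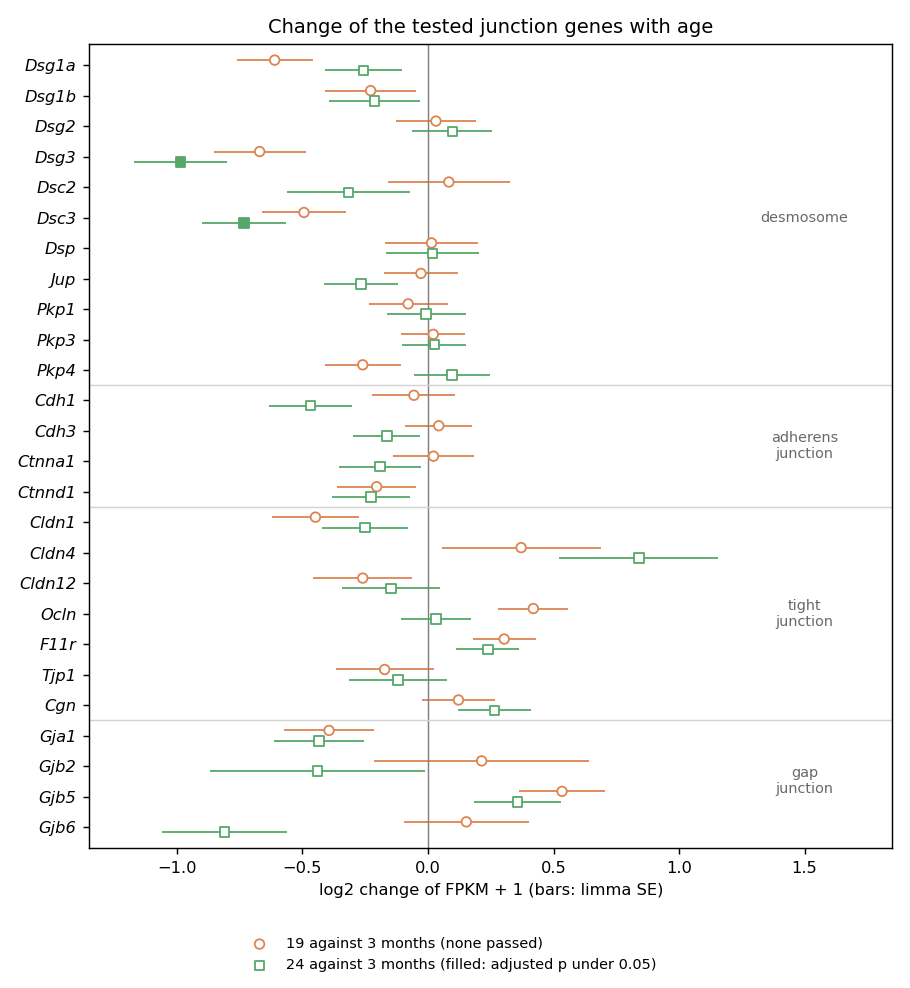
Log2 change of FPKM + 1 for the 26 tested genes at 19 against 3 months (circles) and 24 against 3 months (squares), with limma's SE as bars and 3 libraries per age; filled symbols passed an adjusted p of 0.05. Dsg3 and Dsc3 at 24 months are the filled symbols, at -0.99 and -0.73.

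In adherens junctions, 0 of 4 tested genes passed at any comparison. At an unadjusted p under 0.05 Cdh1 alone passed, at 24 against 3 and at 24 against 19 months. That is 25% of the 4 at each of these, beside 21.6 and 12.8% of all tested genes. Cdh1, E-cadherin, had 163, 235 and 163 FPKM at 3 months, 203, 181 and 151 FPKM at 19 months and 138, 145 and 117 FPKM at 24 months. The 24-month libraries lay below all others. The log2 change was -0.47 ± 0.17 at 24 against 3 months (limma adjusted p = 0.12) and -0.41 ± 0.17 at 24 against 19 months (adjusted p = 0.3).

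Cdh3, P-cadherin, the classical cadherin of basal and hair matrix cells, had 55.9, 53.9 and 67.4 FPKM at 3 months, 55.1, 68.0 and 59.5 FPKM at 19 months and 53.4, 53.9 and 49.98 FPKM at 24 months. The 24-month libraries were the lowest again, but by less than 1 FPKM at the nearest pair (log2 -0.16 ± 0.13 at 24 against 3 months, limma adjusted p = 0.512). Ctnna1, alpha-catenin, which ties the complex to actin, averaged 140.5, 140.2 and 122 FPKM at the 3 ages. Ctnnd1, which encodes a catenin that keeps cadherins at the membrane, averaged 40.2, 34.2 and 33.7 FPKM. Exons of Ctnna1, Ctnnd1, Dsg2, Dsp and Tjp3 overlap those of another gene in GENCODE, so reads may have been shared and their levels are uncertain.

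Tight junction genes had 7 of 9 members tested and 0 called at any comparison. At an unadjusted limma p under 0.05, 3 passed at 19 against 3, 1 at 24 against 3 and 1 at 24 against 19 months. These are 42.9, 14.3 and 14.3% of the 7, beside 15.7, 21.6 and 12.8% of all tested genes. Ocln, occludin, had 12.3, 14.6 and 12.0 FPKM at 3 months, 16.7, 18.1 and 18.0 FPKM at 19 months and 13.7, 13.3 and 12.7 FPKM at 24 months. The 19-month libraries stood above all 6 others. The log2 change was 0.42 ± 0.14 at 19 against 3 months (limma adjusted p = 0.149) and -0.39 ± 0.14 at 24 against 19 months (adjusted p = 0.236).

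Cldn4, a claudin of differentiating and ductal epithelia, had 5.12, 2.78 and 12.2 FPKM at 3 months, 6.70, 8.67 and 7.89 FPKM at 19 months and 12.9, 9.16 and 11.4 FPKM at 24 months. One 3-month library, replicate 3, was within the 24-month range, and the other 2 were below it. The log2 change of 0.84 ± 0.32 at 24 against 3 months did not pass (limma adjusted p = 0.142), and without 3 months replicate 3 it was 1.33 (adjusted p = 0.0116). In that fit 2 of the 26 genes, Cldn4 and Dsg3, were among 281 called of 11435 genes tested. Its window, printed above, holds the 2 AP-1 motifs.

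Cldn1, the claudin that seals the epidermal barrier, averaged 119, 86.3 and 99.6 FPKM at 3, 19 and 24 months (log2 -0.45 ± 0.17 at 19 against 3 months, limma adjusted p = 0.217). F11r, junctional adhesion molecule A, had 208, 236 and 208 FPKM at 3 months, 268, 279.7 and 257 FPKM at 19 months and 280.0, 236 and 254 FPKM at 24 months. Each older library was above each 3-month library, the nearest pair differing by under 1 FPKM, and the log2 changes of 0.30 ± 0.13 and 0.24 ± 0.13 were not called (adjusted p = 0.254 and 0.285). Cgn, cingulin, a plaque protein that binds actin and tubulin, averaged 12.2, 13.3 and 14.8 FPKM. Cldn12 averaged 7.06, 5.68 and 6.32 FPKM, and the scaffold Tjp1 3.13, 2.68 and 2.78 FPKM. Cldn7 is listed at 0 in 2 libraries and was at most 0.633 FPKM, and Tjp3 was at most 0.594 FPKM.

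In gap junctions, of 4 genes tested, 0 passed limma's test at any comparison (2, 2 and 1 at an unadjusted p under 0.05 in the same order of comparisons). These are 50, 50 and 25% of the 4, beside 15.7, 21.6 and 12.8% of all tested genes. Gja1, the most abundant connexin gene of the 4, averaged 149.6 ± 20.8, 115 ± 29.1 and 111 ± 19.0 FPKM at 3, 19 and 24 months (SD over 3 libraries), and its log2 change at 24 against 3 months was -0.43 ± 0.18 (adjusted p = 0.177). Gjb5, a connexin of stratified epithelia, had 59.4, 64.1 and 63.0 FPKM at 3 months, 87.9, 109 and 77.3 FPKM at 19 months and 102, 62.0 and 80.4 FPKM at 24 months. Its 19-month libraries were above all of 3 months (log2 0.53 ± 0.17, adjusted p = 0.138), and its 24-month libraries were not.

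Gjb6 is a connexin gene that adjoins Gjb2 in the genome. It had 3.14, 5.08 and 3.61 FPKM at 3 months, 2.94, 4.25 and 6.72 FPKM at 19 months and 2.502, 1.20 and 1.79 FPKM at 24 months. The 24-month libraries were the lowest of all. The log2 change of Gjb6 was -0.81 ± 0.25 at 24 against 3 months (limma adjusted p = 0.0818) and -0.96 ± 0.25 at 24 against 19 months (adjusted p = 0.0853), and the second passed without 19 months replicate 1 (adjusted p = 0.0315). Gjb2 had 1.004, 1.69 and 4.27 FPKM at 3 months, 1.46, 1.21 and 7.15 FPKM at 19 months and 1.35, 1.91 and 0.656 FPKM at 24 months. Replicate 3 of 19 months held the highest value of both genes.

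**Figure D3:**
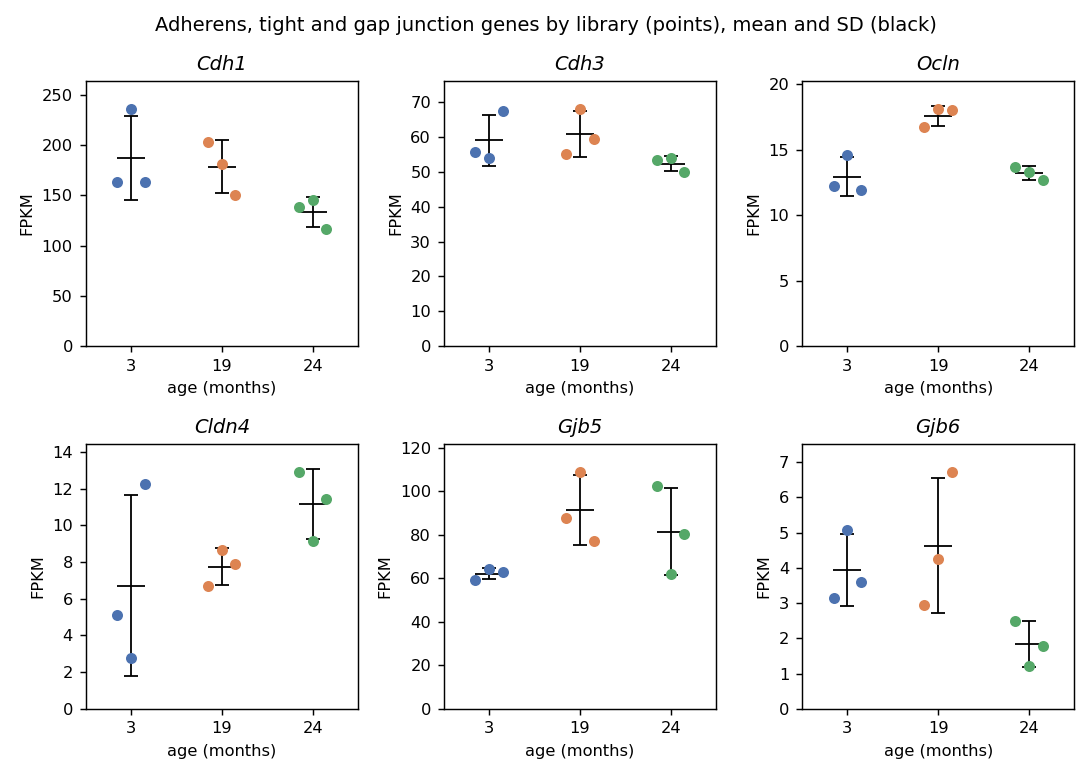
FPKM of 2 adherens, 2 tight and 2 gap junction genes against age in months, with 1 point per library and the mean and SD of 3 libraries in black. Cdh1 and Gjb6 are lowest in the 24-month libraries and Ocln is highest in the 19-month libraries; none of the 6 genes was called.

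Over the 26 tested genes the median log2 change was -0.01 at 19 against 3 months, -0.18 at 24 against 3 months and -0.03 at 24 against 19 months, beside 0.01, -0.004 and -0.02 over all genes tested. At 24 against 3 months 17 of 26 were below 0, or 65.4% beside 50.5% of all tested genes. In 7 of the 26 (Dsg1a, Dsg1b, Dsg3, Dsc3, Cdh1, Cdh3 and Gjb6) each 24-month library was below each 3-month library, which is 26.9% beside a background of 12%. F11r and Cgn were separated upwards, 7.69% beside a background of 10.6%. At 19 against 3 months Dsg1a, Dsg3, Dsc3 and Pkp4 were separated downwards (15.4% beside 11.6%) and Ocln, F11r and Gjb5 upwards (11.5% beside 11%). At 24 against 19 months the counts were 4 downwards and 2 upwards, beside 10.4% and 7.94%. At an unadjusted p under 0.05 the 3 comparisons held 8, 6 and 5 of the 26, or 30.8, 23.1 and 19.2%, beside 15.7, 21.6 and 12.8% of all genes. In limma's F test for a change at any age, Dsg3 and Dsc3 were called (adjusted p = 0.0179 and 0.0449), 2 of 26 beside a background of 4.54%. 

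A wider list of 92 other genes of the same junctions was examined, of which 49 were tested. At 24 against 3 months 4 fell and 1 rose, beside 2.34% of all tested genes called lower and 1.5% called higher. At 19 against 3 months 1 fell and 0 rose, beside 0.964% and 0.6%. At 24 against 19 months 0 passed, beside 0.217% and 0.712%. At an unadjusted limma p under 0.05, 7 passed at 19 against 3, 12 at 24 against 3 and 8 at 24 against 19 months. These are 14.3, 24.5 and 16.3% of the 49, beside 15.7, 21.6 and 12.8% of all tested genes. The median log2 change of the 49 was 0.01 at 24 against 3 months.

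Among desmosome genes of that list, 5 of 7 were tested. At 24 against 3 months 1 fell and 1 rose, beside 2.34% and 1.5% of all tested genes. At 19 against 3 months 1 fell, beside 0.964%. An unadjusted limma p under 0.05 was reached by 40% of the 5 at 19 against 3 months, beside 15.7% of all tested genes. At 24 against 3 months 60% did so, beside 21.6%, and at 24 against 19 months 40%, beside 12.8%. Perp, a tetraspan membrane protein that desmosomes of stratified epithelia need, was more abundant than any of the 30 genes. It had 1612, 1816 and 1446 FPKM at 3 months, 1274, 1421 and 1254 FPKM at 19 months and 996, 1207 and 835 FPKM at 24 months, so that the ages did not overlap in any pair. Perp fell by 0.69 ± 0.17 on the log2 scale at 24 against 3 months (limma adjusted p = 0.0323), with changes of -0.30 ± 0.17 at 19 against 3 months (adjusted p = 0.397) and -0.39 ± 0.17 at 24 against 19 months (adjusted p = 0.328). Cdsn, corneodesmosin, an adhesive protein of desmosomes in the cornified layer, rose at 24 months. Its libraries had 13.5, 10.7 and 17.3 FPKM at 3 months, 20.6, 27.0 and 21.03 FPKM at 19 months and 38.5, 20.5 and 25.5 FPKM at 24 months (log2 0.96 ± 0.21 at 24 against 3 months, adjusted p = 0.0231). Summed markers of differentiated keratinocytes, to which Cdsn belongs by its layer, were higher in each older library than in each 3-month library, and their part in the change of Cdsn was not tested. Dmkn and Krtdap made up most of that sum, with 2305 to 5547 and 1583 to 3452 FPKM over the 9 libraries. Krt1 and Krt10 went the other way at 19 months. Krt1 was at 10.8 to 21.5 FPKM in the 19-month libraries, against 24.4 to 32.4 FPKM in the 3-month libraries. Krt10 was at 53.1 to 62.7 FPKM in the 19-month libraries, against 66.0 to 79.2 FPKM in the 3-month libraries. At 24 months, where Cdsn was called, both overlapped their 3-month ranges. Krt10 was then at 60.0 to 125 FPKM, with a mean above that of 3 months (97.4 against 72.1 FPKM). Krt1 was at 15.6 to 26.9 FPKM, with a mean below it (22.3 against 28.5 FPKM). Leaving out replicate 1 or 2 of 3 months, or replicate 2 or 4 of 24 months, ended both calls, with an adjusted p of up to 0.149 for Perp and 0.111 for Cdsn. Perp was also not called with median centring (0.0601) or in a fit of the 2 ages alone (0.0628).

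Ppl, periplakin, a plaque and cornified envelope protein that binds keratin, was the 1 gene of the wider list called at 19 against 3 months. It had 34.3, 35.4 and 34.0 FPKM at 3 months, 19.9, 21.4 and 17.04 FPKM at 19 months and 23.6, 26.4 and 26.8 FPKM at 24 months. All libraries of 19 months lay below all of 24 months, and those below all of 3 months. Ppl fell by 0.81 ± 0.13 at 19 against 3 months (limma adjusted p = 0.00643) and changed by -0.42 ± 0.13 at 24 against 3 months (adjusted p = 0.0887). The call was kept in each of 9 fits that left out 1 library (highest adjusted p = 0.0453) and in the fit of all rows (0.0368).

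Of 17 tested adherens junction genes of the wider list, 3 fell and 0 rose at 24 against 3 months, and the other 14 were not called. Beside this, 2.34% of all tested genes were called lower and 1.5% higher at that comparison. An unadjusted limma p under 0.05 was reached by 11.8% of the 17 at 19 against 3 months, beside 15.7% of all tested genes. At 24 against 3 months 29.4% did so, beside 21.6%, and at 24 against 19 months 17.6%, beside 12.8%. Plekha7, which anchors microtubules to the cadherin complex, had 14.3, 17.3 and 16.4 FPKM at 3 months, 12.4, 10.6 and 9.18 FPKM at 19 months and 7.40, 9.04 and 7.62 FPKM at 24 months, again with no overlap between any 2 ages (log2 -0.92 ± 0.16, limma adjusted p = 0.00628). Leaving out any 1 of the 9 libraries kept the Plekha7 call (highest adjusted p = 0.0389), and neither the fit of all rows (0.0521) nor that with the replicate number as a block (0.0569) did. Vcl, vinculin, which reinforces junctions under tension, had 5.23, 7.64 and 6.49 FPKM at 3 months, 6.13, 3.98 and 4.35 FPKM at 19 months and 2.40, 4.03 and 2.32 FPKM at 24 months (log2 -0.94 ± 0.21, adjusted p = 0.0231). Leaving out replicate 2 or 3 of 3 months, or replicate 2 or 4 of 24 months, ended the call of Vcl (adjusted p up to 0.109).

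Mllt4, the table's symbol for the afadin gene, which joins nectins to actin, had 356, 397 and 428 FPKM at 3 months, 289, 287 and 274 FPKM at 19 months and 201, 349.6 and 203 FPKM at 24 months. Replicate 3 of 24 months was near the 3-month range and the other 2 were far below it. The log2 change of -0.69 ± 0.18 was just past the threshold (limma adjusted p = 0.0482). It was not called in 8 of 9 fits that left out 1 library, all but the one without 24 months replicate 3, at up to 0.197 without 24 months replicate 4. Exons of Mllt4 and Vcl overlap genes on the other strand in GENCODE, and strand use in the counting is not given, so their levels are uncertain. Ctnnb1, beta-catenin, averaged 83.2, 99.5 and 88.3 FPKM and was not called (adjusted p = 0.754 at 24 against 3 months). Its exons overlap other genes on both strands, so its level is uncertain too.

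**Figure D4:**
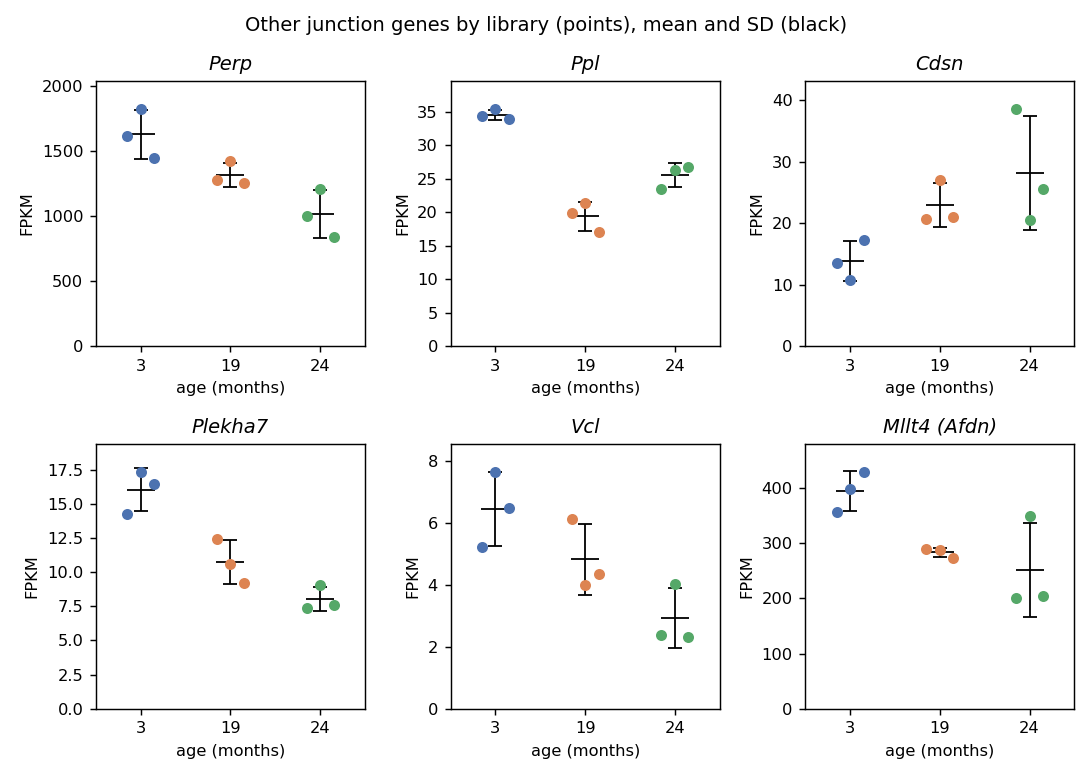
FPKM of 6 other junction genes against age in months, with 1 point per library and the mean and SD of 3 libraries in black. Perp, Plekha7, Vcl and Mllt4 are lowest on average at 24 months, Ppl at 19 months, and Cdsn is highest on average at 24 months.

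Of 45 other tight junction genes 23 were tested and 0 passed limma's test at any comparison, with 1, 4 and 1 at an unadjusted p under 0.05 at 19 against 3, 24 against 3 and 24 against 19 months. The most abundant were Csda, the table's symbol for Ybx3, at 83.5, 84.3 and 101 FPKM on average at 3, 19 and 24 months, and Cxadr, an adhesion molecule, at 48.4, 46.7 and 38.1 FPKM. Exons of Cxadr overlap those of Btg3 on the other strand, so its level is uncertain. Of 19 other gap junction genes 4 were tested and 0 were called at any of the 3 comparisons (2, 0 and 2 at an unadjusted limma p under 0.05). At that unadjusted threshold the shares were 4.35, 17.4 and 4.35% of the 23 tight junction genes and 50, 0 and 50% of the 4. Of all tested genes 15.7, 21.6 and 12.8% passed it.

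Transcription factors known to act on epithelial junction genes were listed too, 16 in number, of which 10 were tested. At 24 against 3 months 1 rose and 0 fell, beside 1.5% and 2.34% of all tested genes. At 24 against 19 months 1 rose and 0 fell, beside 0.712% and 0.217%, and at 19 against 3 months 0 passed, beside 1.56%. An unadjusted limma p under 0.05 was reached by 20% of the 10 at 19 against 3 months, beside 15.7% of all tested genes. At 24 against 3 months 40% did so, beside 21.6%, and at 24 against 19 months 40%, beside 12.8%. Klf4, a factor of barrier formation, rose at 24 against 3 months, with 153, 183 and 157 FPKM at 3 months, 266, 109.8 and 128 FPKM at 19 months and 353, 388 and 246 FPKM at 24 months (log2 0.97 ± 0.26, limma adjusted p = 0.0477). The Klf4 call was lost without any 1 of the 3- or 24-month libraries (highest adjusted p = 0.117). It was also lost with a robust prior (0.107), quantile normalisation (0.111), another pseudocount (0.0527), all gene types (0.183) or no filter on low values. Klf5 had 14.0, 13.0 and 12.8 FPKM at 3 months, 12.4, 11.4 and 9.08 FPKM at 19 months and 21.9, 16.9 and 20.2 FPKM at 24 months. It rose at 24 against 19 months (log2 0.79 ± 0.16, adjusted p = 0.0311), and leaving out replicate 2 of 3 months, replicate 2 or 3 of 19 months, or replicate 2 or 4 of 24 months ended the call (adjusted p up to 0.156). The Klf5 call was also lost in a fit of the 2 ages alone (0.0502), with all gene types (0.178) and with no filter on low values. Trp63, which maintains basal epithelial cells and acts on Perp and desmosome genes, had 278, 352 and 301 FPKM at 3 months, 222, 250.5 and 247 FPKM at 19 months and 186, 249.7 and 208 FPKM at 24 months. Every older library was below every 3-month library, and the log2 change at 24 against 3 months, -0.53 ± 0.14, missed the threshold (adjusted p = 0.0513). Trp63 passed without 3 months replicate 1 (0.0492) or 24 months replicate 3 (0.0288), and with a filter at 5 FPKM, a robust prior or quantile normalisation (0.0463, 0.0468 and 0.0235). Snai2, an E-box repressor, averaged 116, 118 and 119 FPKM and is named here after its values were seen.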

How the data were processed

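Values are FPKM as deposited, 1 per row and library. The authors made them with TopHat and Cuffdiff on the build NCBIM37, per the submitters' processing notes; versions, annotation, strand use and settings were not named in any source used here. Low values showed no common step (at most 2.2% of low genes shared 1 ratio between a pair of libraries), so depth is unknown and no counting interval is given. Of 37980 rows, 32916 matched GENCODE M21 by Ensembl identifier, used for gene types and exon overlaps and for no coordinates, since its build differs. limma 3.58.1 (R 4.3.3) with a mean-dependent prior variance was fitted on log2(FPKM + 1), all 9 libraries in 1 model of 3 ages, two-sided, and checked on simulated data. It held 11509 protein-coding genes that reached 1 FPKM in 3 or more libraries. Rows at exactly 0 throughout an age and at 5 FPKM or more throughout another, 36 in all, were left out as failed estimates. The junction genes, the wider lists, the markers and this gene set were chosen with earlier results of these data known. Values in every library are given for called genes and for the 2 genes of each junction with the smallest F test p; other junction genes are named if called or among the 2 most abundant of their list. Some genes this rule names are not reported here. Alternatives were the pseudocount, the filter, gene types, the prior, scaling, the libraries in the fit and the replicate number as a block.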

Additional observations from a re-analysis of the deposited data

How the results depend on the processing

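The 2 calls among the junction genes at 24 against 3 months rest on the gene set and on single libraries. The count was 2 under the other settings run for that comparison (another pseudocount, a filter at 5 FPKM, rows listed at 0 kept, a robust prior, quantile normalisation, median centring and the 2 ages alone), and it was 0 with no filter on low values, 0 with all gene types, where rows listed at 0 were put back too, and 0 with the replicate block. The cause was not tested. At 19 against 3 months, where 0 were called, it was 1 with a robust prior (Dsg1a) and 1 in the fit of the 2 ages alone (Dsg3). In the F test it was 2, against 3 with a robust prior (Dsc3, Dsg3 and Gjb6), 1 with median centring and 0 with no filter, with all gene types or with the replicate block. Leaving out 1 library gave 0 to 1 at 19 against 3 months, 0 to 2 at 24 against 3 months, 0 to 1 at 24 against 19 months and 0 to 3 in the F test. Over all genes, the 180, 442 and 107 calls of the 3 comparisons ranged from 40 to 253, from 29 to 515 and from 0 to 123 over the other settings, and from 46 to 231, 133 to 457 and 20 to 214 with 1 library left out. The other junction genes called at 24 against 3 months, 5 in number, ranged from 0 to 5 and from 1 to 5. No junction gene or transcription factor named in the text that was called in either fit changed direction under an alternative. The bulge markers and the markers of other skin cells were not part of this check.

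Replicate numbers do not pair the libraries by any label. Same-numbered libraries deviated from their age means with correlations of -0.197 to 0.187 across genes (7 pairs), against -0.23 to 0.164 for other pairs, and 6 of 8 libraries correlated best with their own number. With the replicate number as a block the adjusted p at 24 against 3 months was 0.0825 for Dsg3, 0.0935 for Dsc3, 0.147 for Perp, 0.103 for Cdsn, 0.146 for Vcl, 0.154 for Mllt4 and 0.0569 for Plekha7, and 158 genes were called in all, against 442 without it. A total of 3 libraries per age and an unknown depth limit what can be seen in low genes such as Dsc1, Pkp2, Cldn7 and Tjp3, which gave no test.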

Other observations

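Ratios within a library were computed for 4 pairs of junction genes, chosen after the values had been seen. With 3 libraries against 3 the two-sided exact permutation test cannot give a p below 0.1, so none of the 12 comparisons could pass, and the ratios are given as values only. The ratio of Dsg1a to Dsg3 FPKM was 0.645, 0.502 and 0.658 in the 3-month libraries, 0.644, 0.646 and 0.571 in the 19-month libraries and 1.09, 0.753 and 1.22 in the 24-month libraries. It rests on Dsg1a, whose values are uncertain for the reason given with its levels. The ratio of Dsc3 to Dsp was 1.51, 1.5003 and 0.878 at 3 months, 0.963, 0.933 and 0.768 at 19 months and 0.594, 0.871 and 0.803 at 24 months. The 19-month libraries overlapped those of both other ages, and the 24-month libraries lay below those of 3 months. The ratio of Dsg3 to Dsp was 0.422, 0.372 and 0.198 at 3 months, 0.211, 0.202 and 0.171 at 19 months and 0.122, 0.209 and 0.143 at 24 months, and the ages overlapped. Both ratios to Dsp rest on a gene whose level is uncertain for its exon overlap and spread widely at 3 months. The ratio of Cdh1 to Cdh3 was 2.91, 4.36 and 2.42 at 3 months, 3.69, 2.67 and 2.53 at 19 months and 2.59, 2.69 and 2.34 at 24 months, again with overlap.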
